A study of Mus musculus with 8 samples.

Results

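The Tf and Gf lineages of the mouse L1 family were examined as 14351 annotated genomic copies. They were taken from one deposited count table by name alone: every row of the L1 family whose subfamily begins with L1MdTf or L1MdGf. They are 14351 of the 616981 L1 copies and of the 4835895 regions in that table. L1MdTf_I has 1948 copies, L1MdTf_II 2372 and L1MdTf_III 3234, and L1MdGf_I has 2227 and L1MdGf_II 4570. The names rest on the annotation of the table, and the ages of the copies were not analysed here.

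The study profiled open chromatin by ATAC-seq in primary lung fibroblasts grown at low oxygen from 8 mice, 4 with a knockout of cGAS (KO) and 4 wild type (WT). Each genotype had 2 mice labelled female and 2 labelled male, numbered 1 and 2 within each sex, and each library is one mouse. The genotypes are those of the labels, and the knockout was not checked in the counts. The labels give neither the allele of the knockout nor the age or strain of the mice. ATAC-seq uses a transposase that cuts and tags accessible DNA, so the counts in a region reflect how often it was cut. The comparison of KO with WT asks whether the loss of cGAS changes the accessibility of L1 copies.

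L1 elements are retrotransposons that spread by copying their own RNA back into DNA. A full-length mouse element starts with a 5′ untranslated region that holds its promoter, followed by the reading frames of an RNA-binding protein and of the enzyme that cuts the target and copies the RNA. In Tf and Gf elements the promoter region is built of tandem repeats called monomers, so elements differ in length with the number of monomers. Most copies in the genome are truncated at the 5′ end. cGAS is a sensor of DNA in the cytosol that signals through STING to interferon genes, and it also binds chromatin in the nucleus.

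Of the 14351 copies, 5023 (35.0%) were at least 5 kb long, the length set here for long copies. These held 74.5% of the 43.5 Mb that the annotated copies cover and 73.8% of their counts. The share of long copies was 47.3% in L1MdTf_I, 45.1% in L1MdTf_II, 39.5% in L1MdTf_III, 30.4% in L1MdGf_I and 23.6% in L1MdGf_II. Within each lineage the first subfamily had the highest share of long copies, and both Gf subfamilies had a lower share than any Tf subfamily. The X chromosome carried 1490 copies and the Y 599. The table gives no strand for any copy, so its 5′ end could not be located. No sequence, gene context or cell-type marker of the files' genome build (GRCm39) was analysed here. The treatment of reads that match several copies is not given in the sources used here, and for near-identical copies it bears on every count below.

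The libraries held 4.32e+07 to 7.29e+07 table counts. Open chromatin regions (OCRs, the peaks in the table) took 64.6% to 76.4% of them, and Tf and Gf copies 0.263% to 0.821%. The library labelled KO female 2 carried 17.4 CPM (counts per 1000000 table counts) in 15 OCRs of the first 2 Mb of Y, where the other 3 female libraries had at most 0.0399 and the male libraries 23.3 to 28.0. Tests between the sex labels are therefore given with and without it.

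Density, the CPM of the table total for each Mb of annotated copy, differed far more between libraries than between subfamilies. For all Tf and Gf copies it was 142 in KO female 1, 119 in KO female 2, 67.3 in KO male 1 and 189 in KO male 2. In the WT libraries it was 177 in female 1, 109 in female 2, 60.3 in male 1 and 92.3 in male 2. The highest and the lowest libraries of each genotype thus lay further apart than the genotype means, 129 ± 50.4 in KO and 109.7 ± 49.4 in WT (SD, n = 4). KO male 2 and WT female 1 were high, and KO male 1 and WT male 1 were low.

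**Figure D1:**
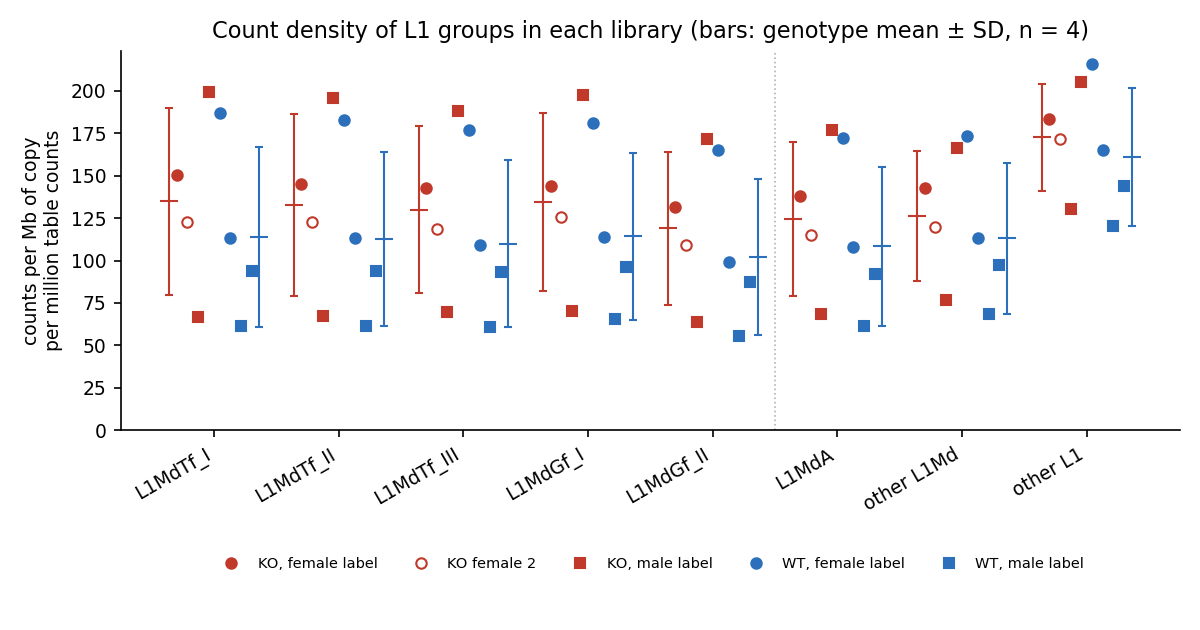
Density, in CPM of the table total for each Mb of copy (vertical axis), for each L1 group (horizontal axis), with one point per library and bars for the mean ± SD of each genotype (n = 4). KO male 2 and WT female 1 are the highest libraries and KO male 1 and WT male 1 the lowest in all 5 Tf and Gf subfamilies.

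The order of the 8 libraries was the same in all 5 subfamilies. From the densest library down, it matched the order of the libraries by rising OCR share of the table, from 64.6% in KO male 2 to 76.4% in WT male 1, except that KO female 1 and KO female 2 changed places. The part of OCR share in the differences below was not tested. The highest library exceeded the lowest 3.13-fold for Tf and Gf copies together. The same ratio was 2.88 for L1MdA, another young mouse lineage, 2.53 for the other L1Md subfamilies and 1.79 for the remaining, mostly older L1 copies. By subfamily it ran from 3.02 in L1MdGf_I to 3.25 in L1MdTf_I.

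Genotype made no detectable difference to the summed counts of any Tf or Gf subfamily. Summed counts are given as CPM after scaling of the libraries with TMM factors. L1MdTf_I had 1110.2, 861, 511 and 1410.3 CPM in KO female 1, KO female 2, KO male 1 and KO male 2. It had 1344, 811, 490.1 and 720.3 CPM in the WT libraries in the same order. Both genotypes held a high and a low library, and their ranges overlapped. KO averaged 973 ± 381 CPM and WT 841 ± 361 (SD, n = 4 each), and the fold of KO over WT was 1.21 (95% interval 0.671 to 2.16).

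L1MdTf_II had 1238, 992, 589.8 and 1599.8 CPM in the KO libraries and 1516, 937, 567 and 827 in the WT libraries, in that same order. Its fold was 1.19 (0.674 to 2.12). L1MdTf_III had 1475, 1164, 744 and 1864 CPM in KO and 1781, 1091, 678 and 996 in WT. The pattern over libraries was that of L1MdTf_I, and the fold of L1MdTf_III was 1.2 (0.692 to 2.07).

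The Gf lineage followed the same pattern over libraries. L1MdGf_I had 887, 735, 448 and 1169 CPM in KO and 1089.9, 682, 436 and 614 in WT, a fold of 1.19 (0.688 to 2.05). L1MdGf_II had 1467, 1156, 733 and 1839.7 CPM in KO and 1798, 1075, 673 and 1009.8 in WT, a fold of 1.18 (0.680 to 2.05). In no subfamily did the ranges of the genotypes separate. Among all retrotransposon subfamilies tested they separated in 11 of 831 (1.32%).

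In edgeR's quasi-likelihood test, fitted on 831 retrotransposon subfamilies with the sex label as a covariate, 0 of the 5 passed an adjusted p of 0.05, and all had an adjusted p of 0.999. Of all 831 subfamilies, 0 (0%) passed. At an unadjusted p under 0.05 the counts were 0 of the 5 and 9 of 831 (1.08%). DESeq2 and limma voom with sample weights also called 0 of the 5 and 0 of 831 (0%). At an unadjusted p under 0.05 both called 0 of the 5, against 16 of 831 (1.93%) for DESeq2 and 18 (2.17%) for limma voom.

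All 5 edgeR folds lay above 1, as did those of 586 of 831 subfamilies (70.5%). The median log2 fold was 0.26 over the 5 and 0.04 over all 831. This direction rested on one library. Without KO male 2 the median over the 5 was -0.17, and with limma's sample weights it was -0.06. With scaling on OCRs alone it was 0.36, where the median over all subfamilies was 0.12, and with scaling on retrotransposons alone 0.19.

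**Figure D2:**
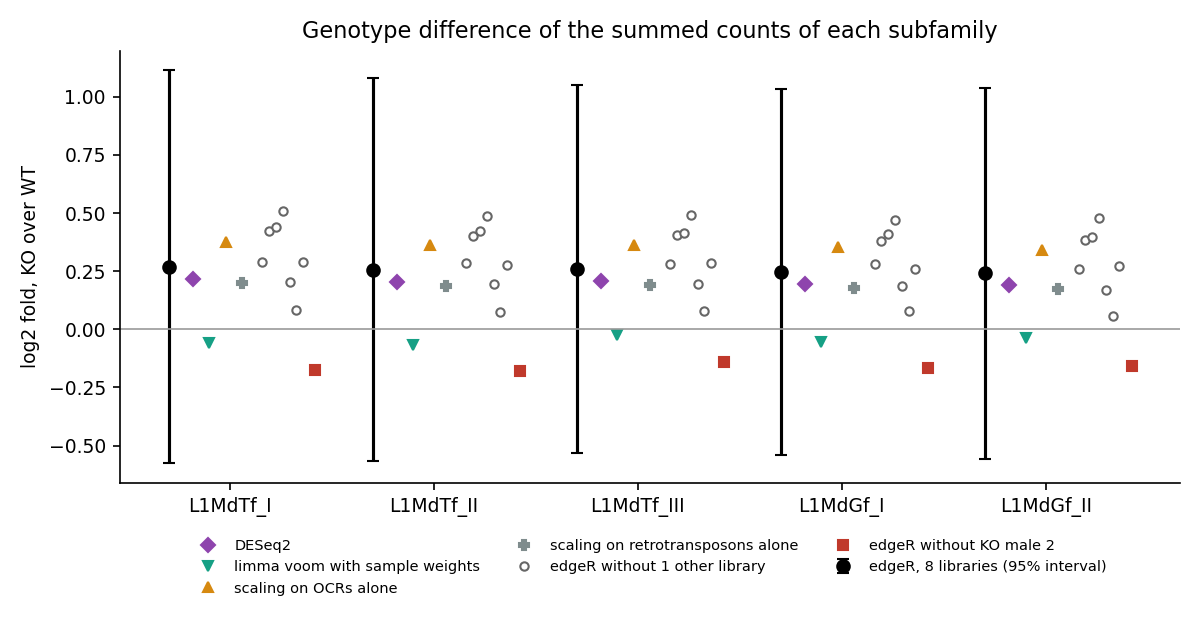
Log2 fold of KO over WT (vertical axis) for the summed counts of the 5 subfamilies (horizontal axis), from edgeR on all 8 libraries with its 95% interval, from other tools and scalings, and from edgeR with 1 library left out. All intervals span 0, and the points without KO male 2 and those with limma's sample weights lie below 0.

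Long and shorter copies were then tested apart. The 10 length classes of the 5 subfamilies had folds of KO over WT from 1.17 to 1.21, with the widest 95% interval reaching from 0.658 to 2.23. In edgeR 0 of the 10 passed, and 0 of 925 length classes of all retrotransposons (0%) passed. At an unadjusted p under 0.05 the counts were 0 of the 10 and 8 of 925 (0.865%). The median log2 fold was 0.24 over the 10 and -0.17 without KO male 2.

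No single copy passed either. Enough counts for a test were present in 9314 of the 14351 copies, among them all 5023 long copies but 4291 of 9328 shorter ones. In edgeR 0 of the 9314 passed, and 0 of all 442422 retrotransposon copies tested (0%) passed. At an unadjusted p under 0.05 there were 132 of the 9314 Tf or Gf copies (1.42%), a lower share than the 14654 of 442422 copies (3.31%). The Tf or Gf calls were 127 upward and 5 downward, and over all copies tested 2.28% were called upward and 1.03% downward. Without KO male 2 this turned to 14 upward and 164 downward, where 1.45% and 1.8% of all copies were. In either direction the count of 132 became 53 without WT male 1, against 2.38% of all copies, and 652 without WT female 1, against 5.12%. These were the lowest and the highest with any 1 library left out, and no copy passed the adjusted p in any of the 8 fits. DESeq2 called 0 of the 3326 Tf or Gf copies to which it gave an adjusted p, and 37 of 39277 retrotransposon copies (0.0942%).

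The Tf or Gf copy with the lowest edgeR p for a higher value in KO was an L1MdGf_II copy at chr9:23659012-23660337. It had 12, 20, 27 and 21 counts in KO female 1, KO female 2, KO male 1 and KO male 2, and 5, 8, 12 and 8 in the WT libraries in that order. The edgeR fold was 2.54, with an adjusted p of 1. Next came an L1MdTf_III copy at chr12:28539607-28541250, with 10 to 23 counts in KO and 4 to 9 in WT, and an L1MdGf_II copy at chrY:82909533-82912020, with 8 to 17 in KO and 2 to 8 in WT. At the copy on Y the 17 counts were in KO female 2, which carried Y-linked OCR counts. KO female 1, with almost none of those, had 12.

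In the other direction the lowest p belonged to an L1MdGf_I copy at chr9:24958201-24959455. It had 13, 9, 4 and 6 counts in KO and 25, 21, 12 and 21 in WT, and was 2.42-fold higher in WT, with an edgeR adjusted p of 1. An L1MdTf_II copy at chr6:61195464-61196456 had 4 to 8 counts in KO and 8 to 22 in WT. An L1MdGf_I copy at chr1:46147181-46148173 had 1 to 9 in KO and 8 to 17 in WT. These 6 copies were picked for their low p among 9314, each was shorter than 5 kb, and none overlapped an OCR.

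A measure within L1 does not depend on how libraries are scaled. Tf and Gf copies took 7.19%, 6.72%, 5.41% and 8.23% of all L1 counts in the KO libraries and 7.51%, 6.47%, 5.30% and 6.34% in the WT libraries, in the order given above. Their share was low in KO male 1 and WT male 1 and high in KO male 2 and WT female 1, as their density was. The means were 6.89 ± 1.17% in KO and 6.40 ± 0.905% in WT (SD, n = 4). The difference of 0.486 percentage points (95% interval -2.10 to 2.93) was within the spread between libraries (exact two-sided permutation test over 70 assignments, p = 0.514, adjusted p = 0.743 over 3 comparisons). It was 0.0390 percentage points without KO male 2 and 0.118 without WT male 1, but 0.855 without WT female 1 and 0.980 without KO male 1. The p of the exact permutation test with 1 library left out was 0.2 to 0.914.

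The genotypes also did not differ detectably in how counts fell on long and shorter copies. The log2 ratio of the density of long copies to that of shorter ones averaged -0.10 ± 0.04 over the KO and -0.14 ± 0.07 over the WT libraries for Tf (SD, n = 4; p = 0.371, adjusted p = 0.743, exact permutation test). For Gf the averages were -0.02 ± 0.06 and -0.04 ± 0.09 (p = 0.743, adjusted p = 0.743, exact permutation test). The intervals of these differences were -0.07 to 0.17 for Tf and -0.14 to 0.21 for Gf. With 4 libraries against 4 the smallest p such a test can give is 0.0286.

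Within libraries, long copies of 4 of the 5 subfamilies had a lower density than shorter ones. Each library was compared with itself by an exact two-sided sign-flip permutation test over all flips of the 8 libraries. The p was adjusted over 9 within-library comparisons, and its smallest possible value before adjustment is 0.00781. All libraries are read on the same copies, so this p speaks to repetition over libraries and not to the spread among copies. In L1MdTf_II the ratio of long to shorter copies was 0.909, 0.868, 0.856 and 0.899 in KO female 1, KO female 2, KO male 1 and KO male 2. It was 0.920, 0.857, 0.794 and 0.876 in the WT libraries in that order. All 8 lay below 1, with a mean ratio of 0.872 (exact permutation adjusted p = 0.0176).

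L1MdGf_I followed with a mean ratio of 0.905, from 0.854 to 0.936, and L1MdTf_III with 0.947, from 0.900 to 0.978 (8 of 8 libraries and exact permutation adjusted p = 0.0176 for each). L1MdTf_I had a mean ratio of 0.923, and 7 of 8 libraries lay below 1, KO female 1 being at 1.00 (exact permutation adjusted p = 0.0281). With any library but KO female 1 or KO male 1 left out its adjusted p was 0.0563. For L1MdTf_III the difference did not pass when long copies were those of at least 6000 bp (ratio 0.984, adjusted p = 0.117 by the same exact permutation test).

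L1MdGf_II was the exception, and its result depended on the chromosomes counted. Over all copies its ratio was 0.994, with 5 of 8 libraries below 1 (exact permutation adjusted p = 0.828). On autosomes alone the ratio was 0.826, from 0.749 to 0.875 and below 1 in 8 of 8 libraries (exact permutation adjusted p = 0.0117). L1MdGf_II has 385 shorter but 10 long copies on the first 90 Mb of Y. The other 4 subfamilies moved less on autosomes, to 0.911 in L1MdTf_I, 0.860 in L1MdTf_II, 0.925 in L1MdTf_III and 0.885 in L1MdGf_I.

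**Figure D3:**
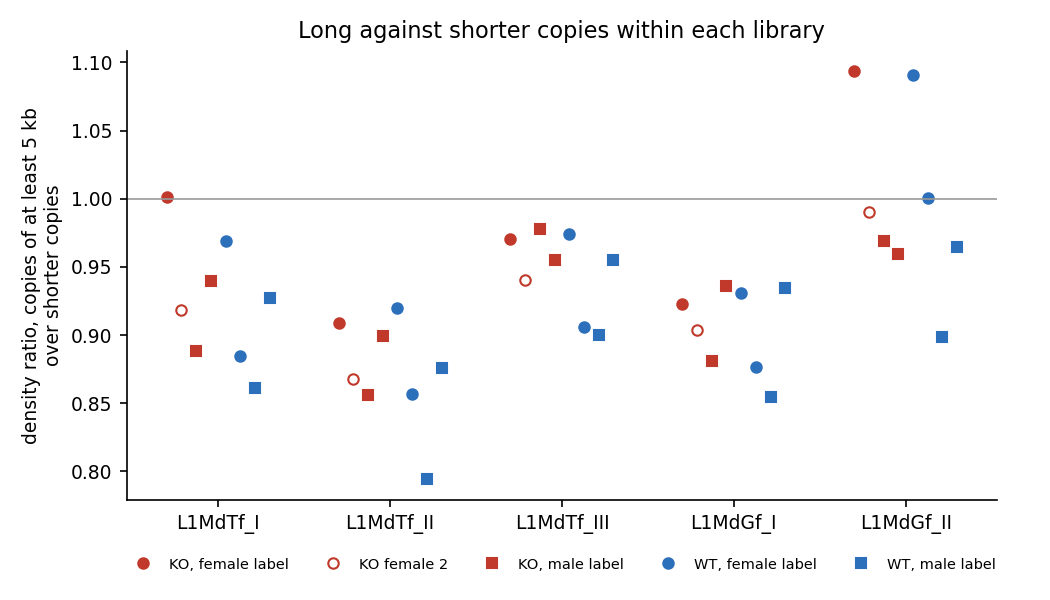
Ratio of the density of copies of at least 5 kb to that of shorter copies (vertical axis) in each library, by subfamily (horizontal axis). All 8 points of L1MdTf_II, L1MdTf_III and L1MdGf_I lie below 1, 7 of 8 points of L1MdTf_I do, and those of L1MdGf_II lie on both sides.

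A single limit at 5 kb hid a mean density that rose, fell and then climbed again with length. Mean density was 114 ± 31.4 for copies under 200 bp, 153 ± 51.1 from 200 to 500 bp and 158 ± 57.4 from 500 to 1000 bp (SD, n = 8 libraries). From 1000 to 2000 bp it was 139 ± 53.2, and from 2000 to 5000 bp 101 ± 39.5. On the other side of the limit it was 108 ± 43.8 from 5000 to 6000 bp, 113 ± 45.9 from 6000 to 6500 bp, 123 ± 49.6 from 6500 to 7000 bp and 143 ± 56.8 at 7000 bp or more. These SDs are those between libraries. The bin from 2000 to 5000 bp was the lowest of the 9 in the mean over libraries. It includes 70 L1MdGf_II copies of 2488 bp on Y, with a mean density of 49.6. The bins pool all chromosomes and were not made for autosomes alone.

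**Figure D4:**
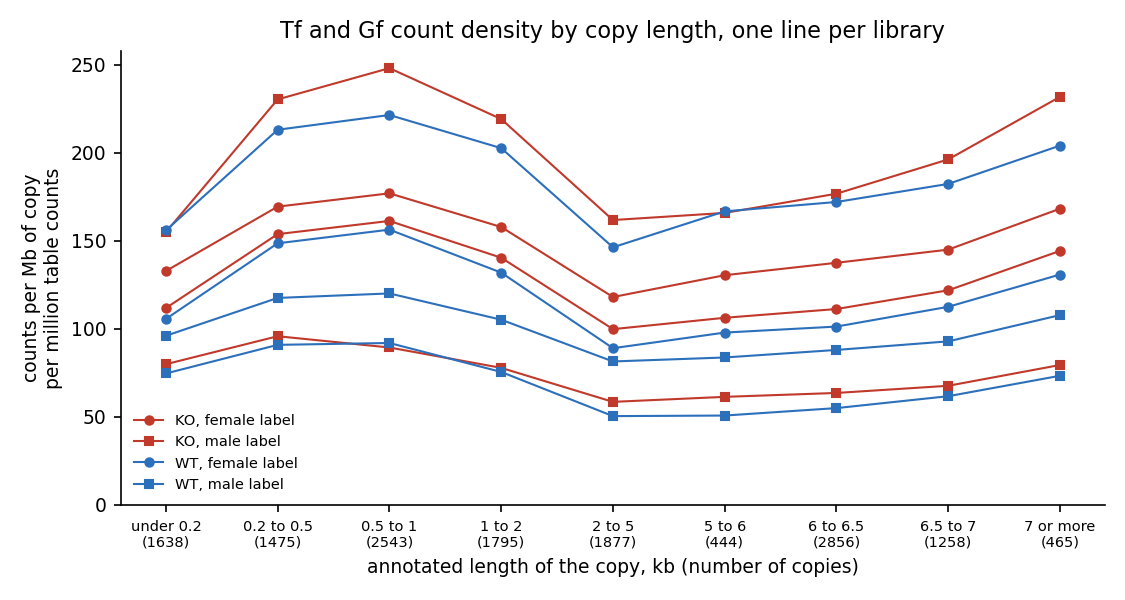
Density, in CPM of the table total for each Mb of copy (vertical axis), by annotated length (horizontal axis, number of copies in parentheses), with one line per library. In the mean over libraries density is lowest between 2 and 5 kb and higher both at 0.5 to 1 kb and at 7 kb or more, while in KO male 2 it is lowest under 0.2 kb.

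The climb among long copies was seen within Tf and within L1MdGf_I. Copies of at least 7000 bp had 1.27 times the density of those of 5000 to 6000 bp in L1MdTf_I, 1.19 times in L1MdTf_II, 1.55 times in L1MdTf_III and 1.52 times in L1MdGf_I, each higher in 8 of 8 libraries. In L1MdGf_II the ratio was 1.05, higher in 7 of 8. The groups of at least 7000 bp held 178, 130, 50, 83 and 24 copies in that order, and those of 5000 to 6000 bp 21, 59, 128, 45 and 191. Copies of 6000 to 6500 bp had 1.04, 0.998, 1.05, 1.085 and 1.06 times the density of those of 5000 to 6000 bp. That ratio was above 1 in 5, 3, 8, 8 and 8 libraries, in the same order. These bins were set with the values known and were not tested.

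Among the shorter copies one length recurred. In all, 274 copies were exactly 993 bp long, each in a single annotated piece, and 69 were 992 bp long. They came from all 5 subfamilies, with 43 of the 993 bp copies in L1MdTf_I, 56 in L1MdTf_II, 52 in L1MdTf_III, 56 in L1MdGf_I and 67 in L1MdGf_II. Their mean density was 158 ± 60.5 (SD, n = 8 libraries), as high as that of all copies of 500 to 1000 bp.

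Subfamilies of one lineage lay close together in density. L1MdTf_I over L1MdTf_II gave a mean ratio of 1.01 within libraries, L1MdTf_I over L1MdTf_III 1.03 and L1MdTf_II over L1MdTf_III 1.02. The higher side was the first-named subfamily in 5, 7 and 7 of 8 libraries, and none passed (exact permutation adjusted p = 0.185, 0.0820 and 0.141). Without KO male 1, where the third subfamily was the densest, both ratios to L1MdTf_III passed with an adjusted p of 0.0234 in the same exact permutation test.

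Split by length, the Tf subfamilies ordered differently. Among shorter copies L1MdTf_I lay below L1MdTf_II with a ratio of 0.965, and L1MdTf_III lay below both, with ratios of 1.05 and 1.09 of the others to it. Each held in 8 of 8 libraries (exact permutation adjusted p = 0.0100 for each). Among long copies L1MdTf_I lay above L1MdTf_II by a ratio of 1.02, also in 8 of 8 (exact permutation adjusted p = 0.0141), and the ratios to L1MdTf_III did not pass. These differences are of a few percent.

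The 2 Gf subfamilies differed more. L1MdGf_I over L1MdGf_II gave 1.09, 1.15, 1.11 and 1.15 in KO female 1, KO female 2, KO male 1 and KO male 2. It gave 1.10, 1.15, 1.17 and 1.10 in the WT libraries in that order. L1MdGf_I was the denser in 8 of 8 libraries, by a mean ratio of 1.13 (exact permutation adjusted p = 0.0176). On autosomes alone the ratio was 1.05 (8 of 8, exact permutation adjusted p = 0.0117), among long copies 1.10 and among shorter copies 1.21.

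Long Tf and Gf copies were alike among themselves. None of the 5023 was at 0 in any library, where 793 values at 0 occurred among 6393 long L1MdA copies, 134 among 7813 of the other L1Md subfamilies and 434 among 3223 of the remaining L1 copies. Averaged over libraries, the density of the copy at the 90th percentile was 1.41 times that at the 10th, 138 against 98.1. The same ratio was 1.66 for L1MdA, 1.80 for the other L1Md subfamilies and 2.32 for the remaining L1 copies. Within a library the variance of the counts around the value set by length was 2.69 to 3.27 times that of pure counting noise for long Tf and Gf copies. It was 3.70 to 5.91 times in L1MdA, 4.84 to 8.29 times in the other L1Md subfamilies and 8.10 to 21.1 times in the remaining long L1 copies. All these values pool all chromosomes. On the first 90 Mb of Y lay 100 long Tf and Gf copies and 510 of L1MdA. The other L1Md subfamilies had 285 there and the remaining L1 copies 145. Their mean density relative to autosomes in the 3 female libraries other than KO female 2 was 0.748, 0.280, 0.117 and 0.0133 in that order. The part of Y copies in these contrasts was not tested.

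The pattern over copies also recurred less from library to library. The correlation of the density of the 5023 long copies between 2 libraries had a median of 0.293 over 28 library pairs, against 0.495 in L1MdA, 0.541 in the other L1Md subfamilies and 0.723 in the remaining L1 copies. It was lowest in L1MdGf_II at 0.190 and highest in L1MdGf_I at 0.366. These correlations also pool all chromosomes. They run across copies, which share the library, its depth and near-identical sequence, and are given as a description. The part of the narrower spread among long Tf and Gf copies in their lower correlation was not tested.

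A few long copies stood above the rest. The densest was an L1MdGf_I copy of 16132 bp in 2 annotated pieces at chr3:6362472-6378603, with a mean density of 302. It had 334, 320, 152 and 411 counts in the KO libraries and 313, 306, 164 and 254 in the WT libraries, in the order used above. The genotypes overlapped, with the lowest counts of each in its male 1 library. The next were L1MdTf_III copies at chr3:66535469-66543642, chr2:14300582-14307240 and chr9:92895359-92903349, with densities of 257, 255 and 250.2, and an L1MdGf_II copy in 3 pieces at chr15:103656849-103671159, with 247. The median long copy had 116.

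Some shorter copies of at least 500 bp reached several times that. An L1MdTf_III copy of 604 bp in 2 pieces at chrY:90818253-90819901 had a mean density of 1573, an L1MdGf_I copy of 722 bp at chr10:92966802-92967523 had 1309, and an L1MdGf_II copy of 684 bp at chrY:90813323-90814006 had 1007. Of these the copy on chromosome 10 overlapped an OCR. The copies on Y had counts in every female library too, 37 to 94 for the first and 43 to 74 for the second. The male libraries had no more, with 36 to 54 for the first and 17 to 36 for the second. Both lie beyond the first 90 Mb of Y, to which the Y ratios below are limited.

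Tf and Gf copies hardly coincided with OCRs. An overlap of at least 1 bp was found for 102 of the 14351 copies (0.711%), and copies that overlapped held 0.744% of the counts. The share was 0.868% in L1MdA, 1.09% in the other L1Md subfamilies and 3.06% in the remaining L1 copies, whose overlapping copies held 18.2% of their counts. The groups differ in copy length. Counted for each Mb of sequence, overlapping copies numbered 2.34 in Tf and Gf, 5.13 in L1MdA, 8.86 in the other L1Md subfamilies and 49.6 in the remaining L1. With at least 100 bp required, 20 Tf or Gf copies remained (0.139%), and 4 held the centre of an OCR (0.0279%).

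By subfamily the share of copies overlapping an OCR ran from 0.411% in L1MdTf_I to 1.03% in L1MdGf_I. Long copies overlapped in 23 of 5023 cases (0.458%) and shorter ones in 79 of 9328 (0.847%). Per Mb of sequence this was 0.710 long and 7.11 shorter copies. The OCRs concerned numbered 104 of 185268, with a median of 1.41 CPM against 1.65 for all OCRs.

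The 3 OCR centres inside long copies all lay within 528 bp of an end, which could be either end. The strongest, at chr2:14300163-14301004, had its centre 2 bp inside an L1MdTf_III copy of 6659 bp. It had 3.07, 4.79, 4.84 and 4.39 CPM in KO and 3.17, 5.67, 4.90 and 4.23 in WT. The second, at chr9:24239518-24240032, had its centre 134.5 bp inside an L1MdTf_III copy, with 0.627 to 0.878 CPM in KO and 0.565 to 0.986 in WT. The genotypes overlapped at both.

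Tf and Gf sums between the sex labels differed by less than the spread between libraries, except when one library was left out. The median log2 fold of male over female was -0.40 over the 5 subfamilies, and -0.10 over all 831. In edgeR 0 of the 5 and 0 of 831 (0%) passed. At an unadjusted p under 0.05 the counts were 0 of the 5 and 10 of 831 (1.2%). Without KO male 2, 5 of 5 were lower in the male libraries with edgeR adjusted p-values of 0.0284 to 0.0320 and a median log2 fold of -0.80, and so were called along with 254 of 831 subfamilies (30.6%). Without any other library 0 of the 5 passed. The median log2 fold was -0.54 without KO female 2, but -0.24 without KO male 1, -0.22 without WT male 1 and -0.17 without WT female 1.

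The genotype difference was not shown to differ between the sex labels. In edgeR's interaction term 0 of the 5 and 0 of 831 (0%) passed, and at an unadjusted p under 0.05 the counts were 0 of the 5 and 1 of 831 (0.12%). DESeq2 also called 0 of the 5. The median interaction over the 5 subfamilies was 0.76 on the log2 scale and 0.62 without KO female 2. It was -0.10 without KO male 2, 0.37 without WT female 1 and 1.28 without KO male 1. In the fit without KO male 1, 5 of 5 had an unadjusted p under 0.05, as did 262 of 831 subfamilies (31.5%), and 0 passed the adjusted p.

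Tf and Gf copies on the X chromosome had a slightly lower relative density in the male than in the female libraries. The density of Tf and Gf copies on X relative to autosomes was 0.899 in KO male 1, 0.935 in KO male 2, 0.918 in WT male 1 and 0.907 in WT male 2. It was 1.01 in KO female 1, 0.974 in WT female 1 and 0.977 in WT female 2, and 0.940 in KO female 2. The male and the female labels did not overlap, with means of 0.915 ± 0.0155 and 0.974 ± 0.0276 (SD, n = 4). They differed by -0.0597 (95% interval -0.108 to -0.00484; exact two-sided permutation p = 0.0286, the smallest possible). Without KO female 2 the difference was -0.0712, with an exact permutation p of 0.0286. The p stayed at 0.0286 without any 1 female library. It was 0.0571 without any 1 male library in the same exact permutation test, so the call was lost in each of those 4. There the difference was -0.0664 to -0.0544, and the remaining male libraries still lay below every female one. With 1 library left out the test has 35 assignments, and the smallest p it can give is 0.0286.

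The ratio of the male mean to the mean of the 3 female libraries other than KO female 2 fell into a graded order. It was 0.996 in L1MdTf_II, 0.964 in L1MdTf_I, 0.948 in L1MdGf_I, 0.925 in L1MdTf_III and 0.828 in L1MdGf_II. It was 0.804 in L1MdA, 0.662 in the other L1Md subfamilies and 0.606 in the remaining L1 copies. For OCRs on X the same ratio was 0.952, near the 0.928 of Tf and Gf copies together, so a small difference on X was not particular to Tf and Gf. On a log2 scale, the male-to-female difference of Tf and Gf copies lay 0.51 above that of the remaining L1 copies (exact permutation p = 0.0286, adjusted p = 0.0514 over 18 such comparisons). Without KO female 2 it lay 0.62 above (exact permutation p = 0.0286, adjusted p = 0.0303). L1MdGf_II was not distinguished from L1MdA, with a difference of 0.03 (exact permutation p = 0.314, adjusted p = 0.314), or 0.04 without KO female 2 (exact permutation p = 0.171, adjusted p = 0.171).

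**Figure D5:**
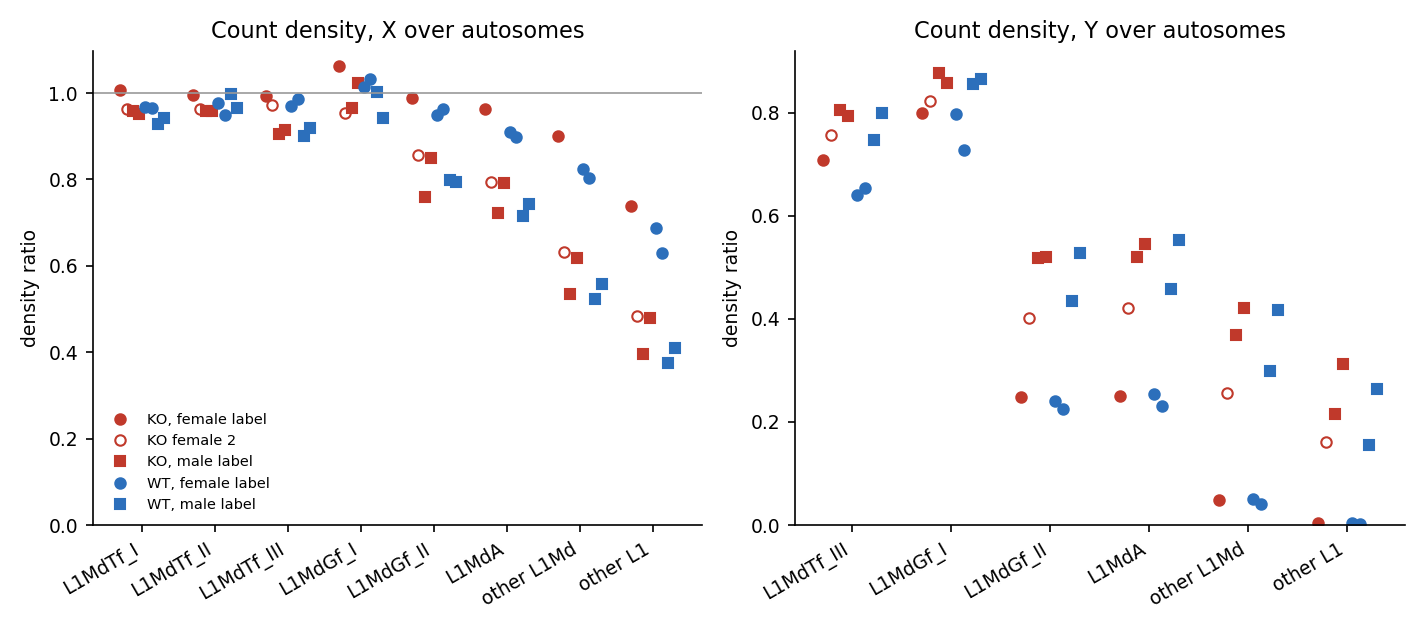
Density on X (left) and on the first 90 Mb of Y (right) relative to autosomes (vertical axes) by L1 group (horizontal axes), with one point per library and KO female 2 as an open circle. Male and female libraries lie close together in L1MdTf_I and L1MdTf_II on X and far apart in the remaining L1 copies, and Tf_III and Gf_I copies on Y have counts in every female library. L1MdTf_I and L1MdTf_II, with 6 and 1 copies on Y, are left out on the right.

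Copies annotated to Y carried counts in libraries with almost no Y-linked OCR counts. On the first 90 Mb of Y, the density of Tf and Gf copies relative to autosomes was 0.444 in KO female 1, 0.427 in WT female 1 and 0.408 in WT female 2. It was 0.653, 0.629, 0.581 and 0.648 in KO male 1, KO male 2, WT male 1 and WT male 2, and 0.552 in KO female 2. The remaining L1 copies on Y had 0.00243 to 0.00349 in the same 3 female libraries and 0.155 to 0.312 in the male ones.

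By subfamily the Y copies of L1MdGf_I had a mean ratio of 0.775 in those 3 female libraries and 0.863 in the male libraries, and those of L1MdTf_III 0.668 and 0.786. L1MdGf_II had 0.238 and 0.50. The 100 long copies on Y had 0.748 in the 3 female libraries and 0.881 in the male libraries. The 487 shorter ones had 0.257 and 0.467. The male mean was thus 1.18 times that of the 3 female libraries for long and 1.82 times for shorter copies, but L1MdGf_II made up 10 of the long and 385 of the shorter ones. Within L1MdTf_III the ratios were 1.15 for long and 1.30 for shorter copies, and within L1MdGf_I the order was the other way, 1.13 and 1.06.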

How the data were processed

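The members, the 5 kb limit and the comparison groups were chosen with earlier results of these data known. Counts came from one deposited table with a column per library. It was made by the authors with featureCounts 2.0.3 in paired mode, per the file header, over peaks and annotated repeats together, with reads reduced to one end, overlaps allowed and fractions assigned. These are expected counts in the deposited table, and 99.2% of the Tf and Gf values were whole within 0.001. They were rounded for models. The submitters' processing notes also name Trim Galore, Bowtie2, SAMtools, Picard, MACS2 and bedtools, and the build GRCm39. The trimming and alignment settings are not given in the sources used here.

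Copies were summed by subfamily and by length class at 5000 bp. edgeR 4.0.16 (robust quasi-likelihood, sex label as covariate) was fitted on every retrotransposon subfamily or class with a mean of at least 100 counts, or on copies kept by its default expression filter, with Benjamini-Hochberg adjustment over all of them and a threshold of 0.05. The library size was the table total with TMM factors from OCRs and kept copies. CPM used these. DESeq2 1.42.0, limma 3.58.1, other scalings, filters, length limits and each library left out were alternatives. Scaling without a count filter was added after seeing the data, as were the finer length bins and the comparison of X ratios with other L1 groups. Densities used table totals without TMM factors. Overlaps used bedtools 2.31.1. Single copies named are, in each direction, the 3 with the lowest edgeR p, the 5 densest long ones and the 3 densest shorter ones of at least 500 bp. Scripts were tested on simulated data. The p-values treat each mouse's library as one replicate.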

Additional observations from a re-analysis of the deposited data

Results flagged for a closer look

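Each value was compared with the others of its genotype or sex label, and a library is listed where its gap to the nearest other library took up most of the range of the 4. Chance gives this in about 1 in 20 groups, and 8 of 94 groups had one. On X relative to autosomes, L1MdTf_I stood out in KO female 1 at 1.01, where the other female libraries had 0.963 to 0.968, and L1MdTf_II in WT male 1 at 0.997, where the other male libraries had 0.958 to 0.965. On Y relative to autosomes, L1MdGf_II stood out in WT male 1 at 0.435, below the 0.518 to 0.527 of the other male libraries.

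The other 5 all concern KO female 2 among the libraries labelled female. The first 2 Mb of Y held 17.4 CPM in its OCRs, against 0.0237 to 0.0399 in the other 3. On Y relative to autosomes its L1MdGf_II copies had 0.401 against 0.225 to 0.247, L1MdA 0.421 against 0.231 to 0.253, the other L1Md subfamilies 0.256 against 0.0413 to 0.0497, and the remaining L1 copies 0.160 against 0.00243 to 0.00349. On X relative to autosomes, the remaining L1 copies had 0.484 in KO female 2. The other 3 female libraries had 0.631 to 0.739 there and the male libraries 0.375 to 0.480. The sex label of KO female 2 could not be settled from the table, and the genotype results keep it under its label. Without it, 0 of the 5 subfamilies passed between genotypes.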

How the results depend on the processing

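No alternative gave a call of a Tf or Gf subfamily, length class or copy between genotypes, and the side of 0 was not stable. With 1 library left out the log2 fold of KO over WT ran from -0.17 to 0.51 in L1MdTf_I, -0.18 to 0.49 in L1MdTf_II, -0.14 to 0.49 in L1MdTf_III, -0.17 to 0.47 in L1MdGf_I and -0.16 to 0.48 in L1MdGf_II. Each lowest value is the one without KO male 2 and each highest the one without WT female 1. The median over length classes ran from -0.17 to 0.47, that over copies from -0.16 to 0.47 and that of the interaction from -0.10 to 1.28. Limma's sample weights gave -0.059, -0.067, -0.024, -0.056 and -0.038 for the subfamilies in that order and -0.060 for the median of the length classes. Between sex labels 0 to 5 subfamilies were called, the 5 without KO male 2. The labels do not say whether the replicate numbers pair libraries across genotypes. Deviations of same-numbered libraries from their group means correlated at 0.73 for the female and -0.49 for the male labels. Within a group the deviations mirror each other, so each sex gives a single value and pairing could not be decided. As a replicate block the numbers gave 0 calls and log2 folds of 0.19 to 0.21, and sign flips of the 4 pairs gave an exact permutation p = 0.5 for the share of L1 counts, whose difference of 0.486 pairing cannot change.

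For the log2 ratio of long to shorter copies, the genotype difference of Gf ran from -0.014 to 0.056 with 1 library left out, below 0 without KO female 1 or WT male 1. That of Tf, 0.040 with all libraries, ran from 0.013 without WT male 1 to 0.067 without WT female 1. Within libraries, L1MdTf_I ran from -0.13 to -0.10 and L1MdGf_II from -0.029 to 0.012. L1MdGf_II was -0.28 on autosomes and -0.20 with a limit of 4000 bp, both passing, but 0.019 with 6000 bp and 0.0078 with shorter copies of at least 500 bp. L1MdTf_III was -0.023 with 6000 bp and no longer passed. L1MdTf_I over L1MdTf_II was 0.030 in long copies and -0.052 in shorter ones, both passing. In shorter copies L1MdTf_I over L1MdTf_III was 0.073 and L1MdTf_II over L1MdTf_III 0.125. Over copies of all lengths, with 1 library left out, these ratios to L1MdTf_III ran from 0.032 to 0.052 and from 0.021 to 0.037. The X difference ran from -0.0712 to -0.0488 with 1 library left out and did not pass without any 1 male library (exact permutation p = 0.0571). The overlap with OCRs was 0.139% for at least 100 bp, 0.0279% for centres and 0.307% for OCRs above the median count. The causes were not tested. A median of 6 counts per shorter copy and library limits single-copy results.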

Other observations

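One length recurred on a single chromosome. All 70 copies of exactly 2488 bp were L1MdGf_II copies on Y, each in 2 or more annotated pieces. Their density was 43.3, 50.3, 36.3 and 106.9 in KO female 1, KO female 2, KO male 1 and KO male 2, and 51.0, 29.6, 28.2 and 50.9 in the WT libraries in that order. The mean of 49.6 ± 25.0 (SD, n = 8) was below the 110.5 of all L1MdGf_II copies, and female libraries with almost no Y-linked OCR counts held counts on them.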
